A study of Mus musculus with 106 samples.

Results

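Females of the inbred mouse strain NOD/ShiLtJ, a line bred as a model of autoimmune diabetes, were compared after chow and after a high-fat diet by RNA sequencing of the liver. The comparison rests on 6 mice, all those labelled NOD/ShiLtJ, female and either diet, out of 106 mice in the series. The control group was 3 females fed chow (CD) and the test group was 3 females fed the high-fat diet (HFD), from week 8 of age until the liver was taken at week 21. Of the energy in chow, fat supplied 6%, protein 20% and carbohydrate 74%. In the high-fat diet these shares were 60%, 20% and 20%. The mice received no other treatment according to the labels, food and water were always available, and livers were perfused and collected in the morning. Each library came from the liver of 1 mouse. The series holds 9 strains, both sexes and both diets. The NOD/ShiLtJ males (3 on each diet) and the females of the other 8 strains (48 libraries so labelled) are used here to show where the NOD/ShiLtJ females differ. All libraries of the series also enter the fit that estimates the spread for the test. Animal numbers in the labels form separate ranges for chow mice 1 and 2, chow mouse 3 and the high-fat mice, and no label says whether they mark cohorts, so that diet and a possible cohort cannot be told apart. The numbers 1 to 3 used for the mice are names in accession order.

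The liver turns dietary carbohydrate into fatty acids through a chain of enzymes that includes acetyl-CoA carboxylase, malic enzyme and fatty acid synthase, most of them transcribed under SREBP-1c, a product of Srebf1, and under ChREBP. Fatty acids taken from the diet or from fat tissue enter through carriers such as CD36 and are then burned in mitochondria and peroxisomes, under PPAR-alpha, or stored as droplets, or sent out in lipoproteins that Mttp loads and apolipoproteins such as Apoa4 coat. Mouse liver also differs by sex, because the sexes release growth hormone in different patterns, and a set of cytochrome P450 and sulfotransferase genes is female-biased for that reason.

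The deposited values are whole read counts per gene. The 6 libraries held 48129496 to 52901470 gene counts each, within the 35534924 to 73577221 of all libraries. Levels below are counts per 1000000 gene counts (CPM), scaled by library size with TMM factors, and they are not corrected for gene length, so genes are not ranked by level. Where 3 values are followed by 3 more, the first are those of chow mice 1 to 3 and the second those of high-fat mice 1 to 3. Albumin and 6 other hepatocyte markers measured were high in every mouse, with summed levels of 98050.0 to 139000.0 CPM in chow mice and 84420.0 to 120000.0 CPM in high-fat mice, and the sex-linked genes Xist and Ddx3y matched the labelled sex in all 12 NOD/ShiLtJ libraries. Among the 48 libraries labelled as females of the other strains, 1 went against its label: the library labelled 129S1/SvImJ f CD 1 had 0.891 CPM of Xist and 58.4 CPM of Ddx3y, where the other 2 of its group had 259.9 and 271.5 CPM of Xist and at most 0.141 CPM of Ddx3y. In whole liver, fewer cells of a type and less RNA per cell cannot be told apart. One technical measure moved with the diet. Reads that fell outside genes made up 5.15%, 5.69% and 5.59% of reads in the chow females and 8.13%, 8.55% and 8.27% in the high-fat females, against 4.71% to 5.82% in NOD/ShiLtJ males and 2.91% to 8.64% over all libraries. The female groups do not overlap in this share, and the male groups do.

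Among 14330 genes tested, 127 (0.886%) passed an adjusted p of 0.05 in the NOD/ShiLtJ females, 57 of them higher on the high-fat diet (0.398%) and 70 lower (0.488%). The test was edgeR's quasi-likelihood test with Benjamini-Hochberg adjustment, from 1 fit of all 36 groups of strain, sex and diet. An unadjusted p under 0.05 was reached by 1719 genes. In 120 of the 127 genes the 3 values of 1 diet all lay above the 3 values of the other, whereas over all genes this held for 12.8% in the higher direction and 10.2% in the lower. Among the called genes, rises were fewer and larger, with a median log2 change of 1.62, and falls were more and smaller, with a median of -0.77. The median chow level was 2.09 CPM in the genes called higher and 80.4 CPM in those called lower, and its part in this contrast was not tested. A change of at least 2-fold was seen in 46 of the genes that rose and 22 of those that fell. The number of calls rested on single mice: it was 46 without chow mouse 1, 59 without chow mouse 2, 49 without chow mouse 3, 58 without high-fat mouse 1, 33 without high-fat mouse 2 and 147 without high-fat mouse 3. With the share of reads outside genes as a covariate, an alternative chosen after seeing the data, 38 genes were called, 32 of them among the 127. In these females the share follows the diet, so that share and diet cannot be told apart. The covariate fit takes its slope from variation within the groups of all libraries, so a call kept or lost with it does not test the part of the share. Of the 37 genes named below by rule that passed, 11 passed without any 1 of the 6 mice, and 14 passed with that covariate (Acacb, Akr1e1, Apoa4, Ccnb1, Cnksr1, Cyp17a1, Dsg1c, Fancl, Gstm3, Ly6c1, Me1, Scyl2, Srgap3 and Tcf24). The other 23 lost the call with it, among them Mttp, Srebf1, Cd36 and both Cyp3a genes, and none of the 37 changed direction in any setting.

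**Figure D1:**
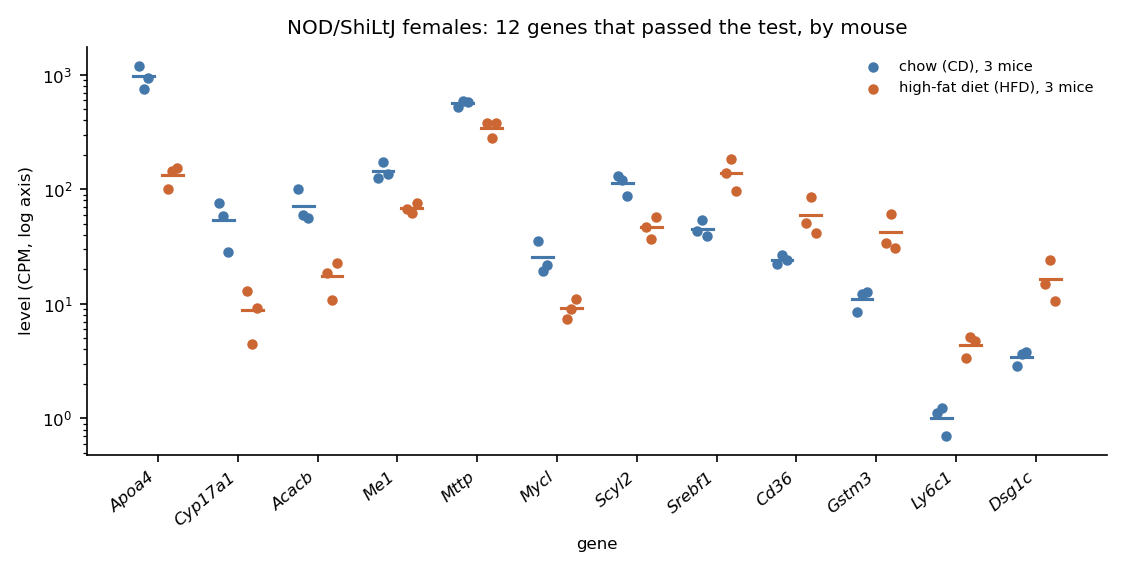
Level in CPM (log axis) of 12 genes that passed the test in each NOD/ShiLtJ female, with 1 point per mouse, 3 mice per diet, and a bar at the group mean. In each of the 12 genes the points of the 2 diets do not overlap.

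Among lipoprotein genes, Apoa4, Mttp and Pltp fell and no gene passed in the other direction. Apoa4 (chr9:46240696-46243459 in GENCODE M21, GRCm38) encodes an apolipoprotein of triglyceride-rich particles. It stood at 1204, 756 and 944 CPM in chow mice 1 to 3 and at 102, 143 and 152 CPM in high-fat mice 1 to 3. Every high-fat mouse was far below every chow mouse, a log2 change of -2.87 ± 0.48 (SE; adjusted p = 0.000232). A predicted transcript on the opposite strand, Gm47528, fell with it (-3.26 ± 0.87 (SE), adjusted p = 0.0463, lost in 5 of 6 fits without 1 mouse and 0.283 without high-fat mouse 2), and whether the authors' counting used strand is not given in the sources used here. The counts of Apoa4, Mttp (opposite Trmt10a), Pltp (opposite Ctsa) and Srebf1 (opposite Rai1) are uncertain in that respect. So are those of Acaca, Acacb, Cap2, Elovl6, Fitm2, Me1, Mogat1, Srgap3, Tcf24 and Tmprss4, each of which overlaps an annotated gene on the opposite strand. Mttp, the transfer protein that loads lipid onto apolipoprotein B, fell from 527, 591 and 584 CPM to 379, 278 and 380.4 CPM, with no overlap and a smaller change of -0.71 ± 0.14 (SE; adjusted p = 0.00229). Pltp, the phospholipid transfer protein of plasma, had 44.9, 97.2 and 40.1 CPM in chow mice and 40.1, 18.5 and 29.3 CPM in high-fat mice (-1.05 ± 0.28 (SE), adjusted p = 0.0463). The lowest chow and highest high-fat values were 40.15 and 40.11 CPM, so that the groups barely separated, and without chow mouse 2 the change was -0.53 and the adjusted p 0.559. Of the 6 fits without 1 mouse, Mttp lost its call in that without high-fat mouse 2 (adjusted p = 0.106), and Apoa4 kept its call without any 1 of the 6 mice. These were the 3 lipoprotein genes called of 21 measured, all lower, beside 0.488% of all genes called lower. In all, 6 were lower and 2 higher without overlap, beside 10.2% and 12.8% of all genes, and the list's median log2 change was -0.20 against 0.01 over all genes. Apoa5, which activates lipoprotein lipase, had 1419, 1521 and 1301 CPM in chow mice and 849, 653 and 1274 CPM in high-fat mice and did not pass (adjusted p = 0.132).

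Of 23 genes of fatty acid and triglyceride synthesis, Acacb and Me1 fell, Srebf1 rose and the other 20 did not pass, beside 0.398% of all genes called higher and 0.488% called lower. Acacb (chr5:114146535-114250761) encodes the acetyl-CoA carboxylase of the mitochondrial surface, whose product malonyl-CoA blocks fatty acid entry into mitochondria. It went from 99.7, 59.7 and 56.7 CPM to 18.6, 10.8 and 22.8 CPM, with every high-fat mouse below every chow mouse (-2.05 ± 0.35 (SE), adjusted p = 0.000233). Me1, the malic enzyme that supplies NADPH for fatty acid synthesis, went from 126, 173 and 136 CPM to 67.6, 62.5 and 75.7 CPM, again without overlap (-1.08 ± 0.25 (SE), adjusted p = 0.0115). Srebf1 (chr11:60199089-60222581), the gene of the transcription factor that drives this pathway, moved the other way. Its level was 43.5, 53.5 and 39.3 CPM in chow mice and 139, 185 and 95.9 CPM in high-fat mice, higher in each high-fat mouse than in any chow mouse (1.62 ± 0.37 (SE), adjusted p = 0.0115). Acacb kept its call without any 1 mouse, whereas Me1 and Srebf1 each lost it in 3 of 6 such fits, at the most without high-fat mouse 2 (adjusted p = 0.121 and 0.152).

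Several classical targets of SREBP-1c were lower in all 3 high-fat mice without passing the test. Fasn, the fatty acid synthase, had 164, 179 and 141 CPM in chow mice and 56.96, 89.3 and 76.8 CPM in high-fat mice (-1.12 ± 0.34 (SE), adjusted p = 0.0966). Elovl6, which lengthens palmitate, had 40.4, 36.1 and 29.7 CPM and 17.2, 16.7 and 17.04 CPM (adjusted p = 0.142). Neither gene's groups overlap, and the same holds for Acly (log2 change -0.41) and Acaca (-0.46). In a fit of the NOD/ShiLtJ libraries only, which estimates the spread from 12 mice, Fasn (adjusted p = 0.00505), Elovl6 (0.0124) and Acly (0.0408) passed. That fit called 395 genes in the females, against 127 in the main fit, and 96 of the 127 were among them. In all, 11 of the 23 genes were lower without overlap and 2 were higher, beside 10.2% and 12.8% of all genes, and the list's median was -0.41. Scd1, the desaturase that makes oleate, varied widely within each group, with 172, 1841 and 337 CPM in chow mice and 358, 21.7 and 78.5 CPM in high-fat mice. Its groups overlap and its log2 change of -2.36 ± 0.81 (SE) did not pass (adjusted p = 0.168), although without high-fat mouse 1 the change was -3.97 and passed (adjusted p = 0.0432).

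Cholesterol synthesis genes were lower at the median (-0.49 over 25 genes measured). Of these, 0 genes were called, beside 0.886% of all genes, and 4 were lower without overlap, beside 10.2% of all genes. Sqle, the squalene epoxidase, came nearest, with 7.92, 36.8 and 39.03 CPM in chow mice and 9.49, 2.23 and 12.5 CPM in high-fat mice (-1.79 ± 0.50 (SE), adjusted p = 0.0597). Without chow mouse 1 it passed (adjusted p = 0.0215), as it did without high-fat mouse 3 (0.0360) and with DESeq2 (0.0224), which called 207 genes against 127 in the main fit. Chow mouse 1 lay among the high-fat mice for Sqle, and likewise for Cyp51 (26.7, 86.02 and 88.9 CPM against 40.02, 16.3 and 45.3 CPM) and Idi1. Chow mice 2 and 3 were alike and high in these 3 genes. In the NOD/ShiLtJ males 5 genes of this list were called, all lower (beside 0.621% of all genes called lower in the males), with a median of -0.72.

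Fatty acid oxidation was the list with the most genes that separated the diets. In 24 of its 39 genes every high-fat female was below every chow female, and in 0 genes above, beside 10.2% and 12.8% of all genes, and the median log2 change was -0.35. Of the 39 genes 1 passed the test, lower, beside 0.488% of all genes called lower, and its call was lost without any 1 of the 6 mice. Ehhadh, an enzyme of peroxisomal oxidation, had 3194, 3486 and 3758 CPM in chow mice and 1609, 766 and 1978 CPM in high-fat mice (adjusted p = 0.0514). Cpt1a, the carrier-forming enzyme at the mitochondrial entrance, had 1047, 912 and 849.7 CPM and 660.3, 530.3 and 681 CPM (adjusted p = 0.172). Values for the omega-hydroxylase Cyp4a14 were 4902, 6146 and 7767 CPM and 3159, 2314 and 3658 CPM (adjusted p = 0.325), and those for the pyruvate dehydrogenase kinase Pdk4 were 119, 143 and 87.1 CPM and 59.4, 13.7 and 67.4 CPM (adjusted p = 0.457). High-fat mouse 2 had the lowest value of all 6 mice for each of these 4 genes. Fgf21, a liver hormone under PPAR-alpha, had 83.6, 45.1 and 42.4 CPM and 67.5, 15.6 and 50.9 CPM, which overlap (adjusted p = 0.913). Ppara, Hadha, Hadhb, Acadm, Acadl and Acadvl were also among the 24, and none of them passed.

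Genes of lipid droplets split in direction. Cd36 (chr5:17781690-17888801), a fatty acid carrier of the cell surface, rose from 22.5, 26.5 and 24.1 CPM to 51.03, 86.5 and 41.4 CPM, with all high-fat mice above the chow mice (1.29 ± 0.33 (SE), adjusted p = 0.0384). Fitm2, which helps droplets bud from the endoplasmic reticulum, fell from 112, 109 and 88.8 CPM to 56.2, 53.7 and 76.5 CPM (-0.73 ± 0.20 (SE), adjusted p = 0.0481). Both calls were near the threshold and were lost in 5 of the 6 fits without 1 mouse, with adjusted p up to 0.411 for Cd36 and 0.324 for Fitm2 without high-fat mouse 2. Cidec, which fuses droplets, was at 69.8, 38.1 and 54.4 CPM in chow mice and 8.12, 10.2 and 18.2 CPM in high-fat mice, a separation of the groups that did not pass (-2.15 ± 0.66 (SE), adjusted p = 0.0964). It passed with DESeq2 (adjusted p = 0.0466) and with the NOD/ShiLtJ libraries only (0.0215), settings that called 207 and 395 genes, against 127 in the main fit. Plin2, the main droplet coat protein of hepatocytes, had 1323, 1375 and 1467 CPM and 811, 554 and 1413 CPM, and high-fat mouse 3 lay within the chow range. Mogat1, which makes diacylglycerol, had 0.833, 0.703 and 0.825 CPM and 1.07, 1.57 and 0.960 CPM (adjusted p = 0.678). Of 19 genes, 1 rose and 1 fell, beside 0.398% and 0.488% of all genes. Without regard to the test, 4 were higher and 7 lower without overlap (12.8% and 10.2% of all genes), and the median was -0.24.

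In glucose metabolism, Slc37a4 was the only gene called of 27, beside 0.488% of all genes called lower. It encodes the transporter that brings glucose-6-phosphate into the endoplasmic reticulum, where the phosphatase G6pc releases glucose. Slc37a4 fell from 228, 222 and 209.9 CPM to 97.2, 144 and 119 CPM, without overlap (-0.87 ± 0.23 (SE), adjusted p = 0.0457), and lost its call without any 1 of the 6 mice (adjusted p up to 0.273, without high-fat mouse 1). G6pc itself had 1202, 1324 and 1126 CPM in chow mice and 509.7, 314 and 695 CPM in high-fat mice (-1.27 ± 0.42 (SE), adjusted p = 0.148). Pck1, which commits carbon to glucose synthesis, had 4979.9, 3577 and 4696 CPM and 1755, 2636 and 3483 CPM (adjusted p = 0.350). The insulin-suppressed gene Igfbp1 had 646, 645 and 425 CPM and 157, 116 and 384 CPM (adjusted p = 0.415). These 3 genes were lower in each high-fat mouse than in any chow mouse and did not pass. The lowest log2 change of the list was that of Ppp1r3g, a regulator of glycogen synthesis, with 5.78, 12.8 and 9.16 CPM and 0.469, 0.378 and 3.11 CPM (-2.83 ± 1.15 (SE), adjusted p = 0.273). In total 11 of the 27 genes were lower and 3 higher without overlap, beside 10.2% and 12.8% of all genes, with a median of -0.22.

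The female-biased liver genes had the largest share of members called, 3 of 17, all lower, beside 0.488% of all genes called lower, with a median of -0.23. Cyp17a1 (chr19:46667165-46673172), a hydroxylase and lyase of steroid synthesis, fell from 76.7, 58.1 and 28.2 CPM to 12.8, 4.44 and 9.29 CPM. Chow mouse 3 was the lowest of the chow mice and still above each high-fat mouse (-2.62 ± 0.45 (SE), adjusted p = 0.000233), and the call held without any 1 mouse. Cyp3a41b and Cyp3a16, female-biased cytochromes P450 of the Cyp3a family, were called with overlapping groups. Cyp3a16 had 90.4, 47.3 and 4.23 CPM in chow mice and 5.97, 0.359 and 7.29 CPM in high-fat mice (-3.39 ± 0.85 (SE), adjusted p = 0.0291). Cyp3a41b had 9.496, 5.89 and 0.233 CPM and 0.394, 0.170 and 0.564 CPM (-3.80 ± 0.89 (SE), adjusted p = 0.0157). Chow mouse 3 lay inside the high-fat range for both. The call of Cyp3a16 was lost in 4 of the 6 fits without 1 mouse and that of Cyp3a41b in 3 of 6. The smallest changes came without chow mouse 1, at -2.51 for Cyp3a16 and -3.04 for Cyp3a41b (adjusted p = 0.251 and 0.177). The same mouse was low for Cyp3a41a (138, 149 and 26.7 CPM in chow mice, 23.3, 1.66 and 25.9 CPM in high-fat mice), Cyp3a44 (159.8, 146 and 28.2 CPM and 53.5, 5.74 and 46.9 CPM) and A1bg (104, 88.8 and 17.1 CPM and 23.5, 2.44 and 26.03 CPM), which did not pass, so that chow mouse 3 was close to the high-fat mice in all of these genes. Without overlap, 2 of the 17 genes were higher and 3 lower, beside 12.8% and 10.2% of all genes. The 2 higher were Cyp2b13 and Sult2a8 (1.16 and 0.85), which did not pass, and the 3 lower were Cyp17a1, Cyp3a41a and Cyp2a4. Of 13 male-biased genes 0 were called (beside 0.886% of all genes), 4 were higher without overlap (12.8% of all genes) and the median was 0.56. Hsd3b5, a male-biased steroid dehydrogenase, had 2.74, 6.03 and 5.16 CPM and 23.8, 11.4 and 31.1 CPM (adjusted p = 0.261).

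Reads that match several near-identical Cyp3a copies equally would count as not unique and be left out, so the single values of these genes are uncertain. The promoters of Cyp3a41b and Cyp3a16 are also close in sequence, which does not show how reads of the transcripts align. The sequences run from 250 bases before to 50 after the start of the gene (RefSeq, GRCm38.p6, minus strand), lie at chr5:145584681-145584980 for Cyp3a41b and at chr5:145469674-145469973 for Cyp3a16, and are shown 5′ to 3′ with the bases that differ in the alignment in capitals.
Cyp3a41b: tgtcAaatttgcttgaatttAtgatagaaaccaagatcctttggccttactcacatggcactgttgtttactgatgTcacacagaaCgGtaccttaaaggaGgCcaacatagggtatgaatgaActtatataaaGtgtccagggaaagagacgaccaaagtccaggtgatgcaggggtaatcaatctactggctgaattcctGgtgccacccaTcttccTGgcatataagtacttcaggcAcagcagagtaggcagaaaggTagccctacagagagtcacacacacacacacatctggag
Cyp3a16: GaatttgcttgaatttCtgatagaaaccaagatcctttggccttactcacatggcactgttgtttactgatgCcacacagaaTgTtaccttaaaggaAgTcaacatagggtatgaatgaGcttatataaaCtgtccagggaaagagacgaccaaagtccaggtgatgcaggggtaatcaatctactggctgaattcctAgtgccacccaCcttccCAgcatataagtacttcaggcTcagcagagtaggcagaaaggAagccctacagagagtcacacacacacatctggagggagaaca
Over 292 aligned bases 277 were identical (94.9%) and 15 differed. Neither promoter held CACGTG (an E-box), TCACNCCAC (a sterol element), CCAAT, the DR1 repeat of nuclear receptors or TTANGTAA (a D-box) on either strand, motifs found in 7.15%, 1.24%, 37.4%, 0.0396% and 2.32% of 32851 mouse promoters of that length. Promoters of 45 of the 63 genes named by rule were in the RefSeq table.

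Of 41 xenobiotic genes Gstm3 and Ces2c rose and the Cyp3a pair above fell (0.398% and 0.488% of all genes were called higher and lower), with a median of 0.20 and 17 genes higher and 5 lower without overlap, beside 12.8% and 10.2% of all genes. Gstm3, a glutathione transferase, rose from 8.42, 12.3 and 12.7 CPM to 34.00, 61.4 and 30.9 CPM, with high-fat mouse 2 the highest and no overlap (1.92 ± 0.40 (SE), adjusted p = 0.00453). Ces2c, a carboxylesterase, rose from 1.31, 3.32 and 1.65 CPM to 5.797, 8.57 and 8.41 CPM (1.86 ± 0.47 (SE), adjusted p = 0.0318). Gstm3 lost its call in 2 of 6 fits (at the most without high-fat mouse 2, 0.112) and Ces2c in 4 (without chow mouse 1, 0.224). Near-identical family members make the counts of both uncertain. Cyp2a5 (158, 230.5 and 97.4 CPM in chow mice, 359.8, 501 and 471 CPM in high-fat mice), Gsta2, Gstm2 and Cyp2c50 were higher in each high-fat mouse without passing. Cyp2b10, the classical target of the receptor CAR, went the other way, with 29.2, 18.3 and 28.7 CPM and 9.79, 5.59 and 1.75 CPM (adjusted p = 0.222).

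Among the bile acid genes 0 of 24 were called, beside 0.886% of all genes, and 5 were higher and 3 lower without overlap, beside 12.8% and 10.2%. Their median was 0.03. Cyp7a1, the rate-limiting enzyme of bile acid synthesis, had 52.1, 83.9 and 8.08 CPM in chow mice and 136, 21.2 and 25.3 CPM in high-fat mice, values that overlap widely (adjusted p = 0.937). Cyp8b1, which makes cholic acid, had 960.1, 847 and 570.0 CPM and 451, 254 and 629 CPM, also with overlap (adjusted p = 0.216). Cyp2c70, which makes muricholic acids in mice, had 138, 131 and 103 CPM and 328, 286 and 342 CPM, a separation that came close to the threshold (1.36 ± 0.38 (SE), adjusted p = 0.0582). Cyp39a1, an oxysterol hydroxylase named here for the size of its fall, went from 44.8, 38.4 and 39.3 CPM to 22.3, 12.2 and 15.4 CPM (-1.30 ± 0.35 (SE), adjusted p = 0.0497). Its call was at the edge and was lost without any 1 of the mice, with the highest adjusted p (0.343) without high-fat mouse 2.

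Other genes with the largest falls included regulators and a kinase-like protein. Scyl2 (chr10:89638721-89686285), a pseudokinase of clathrin-coated vesicles, had the lowest p of all genes. It fell from 131, 121 and 87.3 CPM to 46.6, 36.7 and 57.3 CPM, without overlap (-1.27 ± 0.19 (SE), adjusted p = 5.62e-05), and kept its call without any 1 mouse. Srgap3, a regulator of Rac in neurons, fell from 7.18, 3.98 and 1.92 CPM to 0.938, 0.567 and 0.898 CPM (-2.45 ± 0.43 (SE), adjusted p = 0.000284). Tcf24, a basic helix-loop-helix factor, fell from 2.07, 2.95 and 2.88 CPM to 0.356, 0.661 and 0.543 CPM (-2.34 ± 0.43 (SE), adjusted p = 0.000715). These 2 also kept their calls in all 6 fits without 1 mouse, although their levels were low. Mycl, a transcription factor of the Myc family, fell from 35.3, 19.3 and 21.8 CPM to 7.43, 8.97 and 10.96 CPM (-1.48 ± 0.29 (SE), adjusted p = 0.00184), and the call ended without chow mouse 1 (adjusted p = 0.0770) and with the covariate (0.07725). Slc25a47, a mitochondrial carrier of the liver, fell from 1228, 1118 and 1031 CPM to 401, 340.0 and 847 CPM, with high-fat mouse 3 nearest to the chow mice (-1.09 ± 0.28 (SE), adjusted p = 0.0318). Lor, Cdhr2 and Sall2 fell by 1.29, 1.27 and 1.11 on the log2 scale from levels under 3 CPM. Slc25a47, Cdhr2 and Sall2 were each lost in 5 of 6 fits without 1 mouse and Lor in 6, with adjusted p up to 0.343, 0.227, 0.157 and 0.157 in that order, all without high-fat mouse 2.

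**Figure D2:**
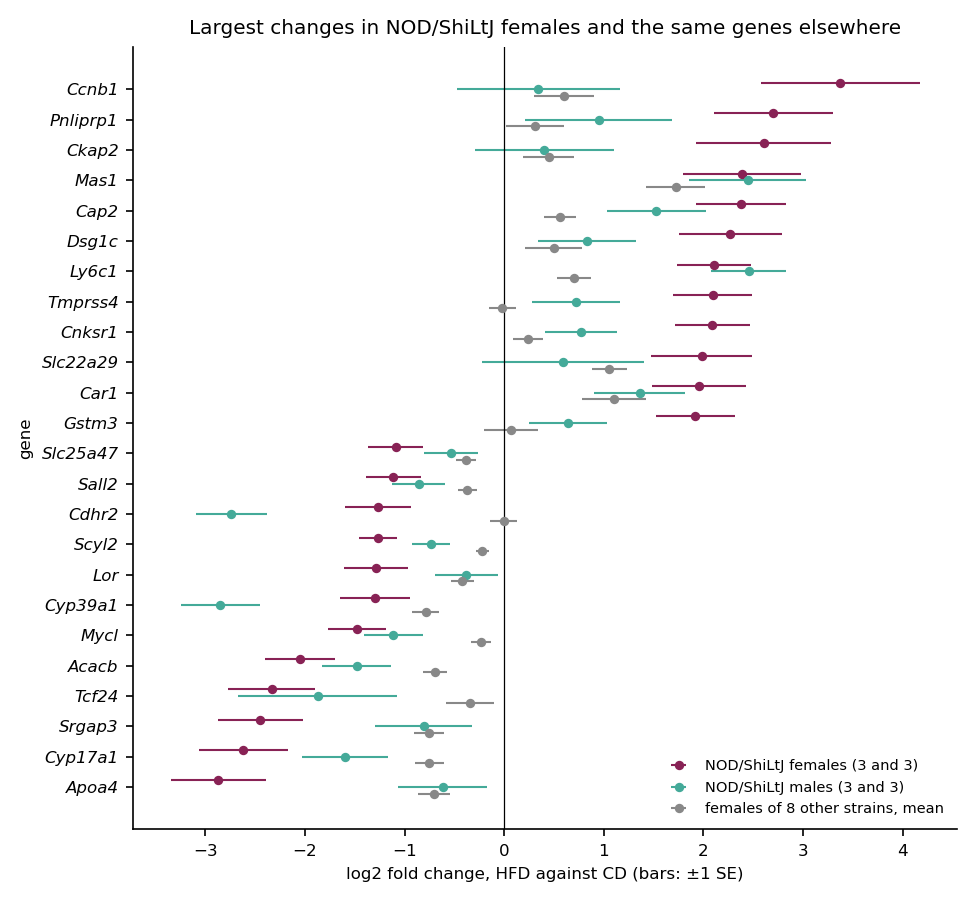
Log2 fold change of high-fat diet against chow, with bars of 1 standard error, for the 12 largest rises and 12 largest falls in NOD/ShiLtJ females among called genes with no overlap, at least 1 CPM and no clone or predicted name, beside the same genes in NOD/ShiLtJ males and the mean of the females of 8 other strains. Cdhr2 and Cyp39a1 fell further in the males than in the females by their estimates, and Tmprss4 stays near 0 in the other strains. The genes were chosen on the female values, so the distance of the female points from the others is a description.

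The largest rises were in genes of low level on chow. Ly6c1, a surface protein of endothelial and myeloid cells, rose from 1.11, 1.25 and 0.698 CPM to 3.34, 5.14 and 4.74 CPM (2.11 ± 0.37 (SE), adjusted p = 0.000328). Reads that match its near-identical neighbour Ly6c2 equally would be left out as not unique, so the level of Ly6c1 is uncertain. Dsg1c, a desmosomal cadherin, rose from 2.85, 3.64 and 3.81 CPM to 14.95, 24.2 and 10.6 CPM (2.27 ± 0.52 (SE), adjusted p = 0.0114). Cnksr1, a scaffold of Ras signalling, rose from 0.685, 0.804 and 0.677 CPM to 2.89, 4.12 and 2.23 CPM (2.09 ± 0.37 (SE), adjusted p = 0.000385). In each of these genes the lowest high-fat mouse exceeded the highest chow mouse. Tmprss4, a membrane serine protease, rose from 0.389, 0.543 and 0.381 CPM to 2.25, 2.12 and 1.25 CPM (2.09 ± 0.39 (SE), adjusted p = 0.000941), and Cap2, an actin-binding protein, from 0.426, 0.502 and 0.317 CPM to 2.06, 2.79 and 1.65 CPM (2.38 ± 0.45 (SE), adjusted p = 0.000993). Pnliprp1, a lipase-related protein best known from the pancreas, rose from 0.204, 0.462 and 0.233 CPM to 1.63, 2.76 and 1.48 CPM (2.70 ± 0.60 (SE), adjusted p = 0.00797). Of 10 markers of exocrine pancreas only Cela1 was among the genes tested, with 7.59, 8.399 and 10.7 CPM in chow mice and 14.7, 10.03 and 19.9 CPM in high-fat mice, and the part of pancreatic tissue was not tested. Mas1, the receptor of a short angiotensin peptide, rose from 0.611, 1.45 and 1.08 CPM to 3.58, 10.5 and 2.401 CPM (2.39 ± 0.59 (SE), adjusted p = 0.0263). High-fat mouse 2 was the highest, and Mas1 overlaps the antisense transcript Airn.

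The transporter Slc22a29 rose from 0.722, 2.57 and 1.67 CPM to 5.497, 6.25 and 7.87 CPM (1.98 ± 0.51 (SE), adjusted p = 0.0355). Car1, a carbonic anhydrase, rose from 1.61, 2.63 and 1.08 CPM to 4.97, 8.86 and 6.89 CPM (1.96 ± 0.47 (SE), adjusted p = 0.0213). Neither gene's groups overlap. Car1 is also a product of red cells, and of 7 erythroid markers 6 were measured and 0 called (beside 0.886% of all genes). All 6 had positive log2 changes, from 0.17 to 1.87 with a median of 0.46, and Alas2 and Slc4a1 were higher without overlap, beside 12.8% of all genes. Their summed levels were 51.7 to 181 CPM in chow mice and 101 to 194 CPM in high-fat mice. Those sums overlap, and their part in the change of Car1 was not tested. Ly6c1, Cnksr1, Tmprss4 and Cap2 kept their calls without any 1 mouse. Car1 and Pnliprp1 each lost the call in 3 of 6 such fits, Mas1 and Dsg1c in 4 and Slc22a29 in 5. The highest adjusted p was 0.171 for Car1 without chow mouse 3, 0.105 for Pnliprp1 and 0.264 for Slc22a29 without chow mouse 1, and 0.456 for Mas1 and 0.143 for Dsg1c without high-fat mouse 2.

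Cell division genes were higher at the median (0.88 over 17 genes), with 1 called, beside 0.398% of all genes called higher, and 1 mouse stood apart. Ccnb1, the mitotic cyclin B1, had 0.111, 0.0804 and 0.127 CPM in chow mice and 2.495, 0.397 and 0.459 CPM in high-fat mice (3.37 ± 0.80 (SE), adjusted p = 0.0168). Ckap2, a spindle protein outside the list, had 0.111, 0.281 and 0.169 CPM and 2.401, 0.604 and 0.418 CPM (2.61 ± 0.67 (SE), adjusted p = 0.0384). High-fat mouse 1 was far above the other high-fat mice in both, and without it the changes were 1.99 (adjusted p = 0.436) and 1.45 (adjusted p = 0.545). Top2a (0.444, 1.23 and 0.952 CPM and 3.92, 1.27 and 1.75 CPM), Cdc20 (0.259, 0.502 and 0.444 CPM and 3.81, 0.548 and 0.438 CPM) and Mki67 (0.481, 1.04 and 1.16 CPM and 3.83, 1.28 and 1.48 CPM) had the same mouse highest and did not pass. In all, 7 of the 17 genes were higher and 0 lower without overlap, beside 12.8% and 10.2% of all genes.

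Another mouse stood apart in clock output genes. Dbp, a circadian transcription factor, was at 0.796, 0.623 and 0.423 CPM in chow mice and at 1.18, 14.9 and 0.856 CPM in high-fat mice, and high-fat mouse 2 stood far above the others (3.19 ± 1.22 (SE), adjusted p = 0.236). Nr1d1 (11.4, 67.04 and 16.5 CPM on the high-fat diet), Per3 (4.07, 10.6 and 3.28 CPM) and Tef (41.4, 94.9 and 38.8 CPM) were highest in the same mouse. Of 20 circadian genes 0 were called, beside 0.886% of all genes, and the list's median was -0.08. Without overlap 4 were higher and 3 lower, beside 12.8% and 10.2% of all genes. The NOD/ShiLtJ males had 3.243, 1.08 and 14.9 CPM of Dbp under chow and 16.9, 4.58 and 16.9 CPM under the high-fat diet, and the time of collection within the morning is not given per mouse.

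**Figure D3:**
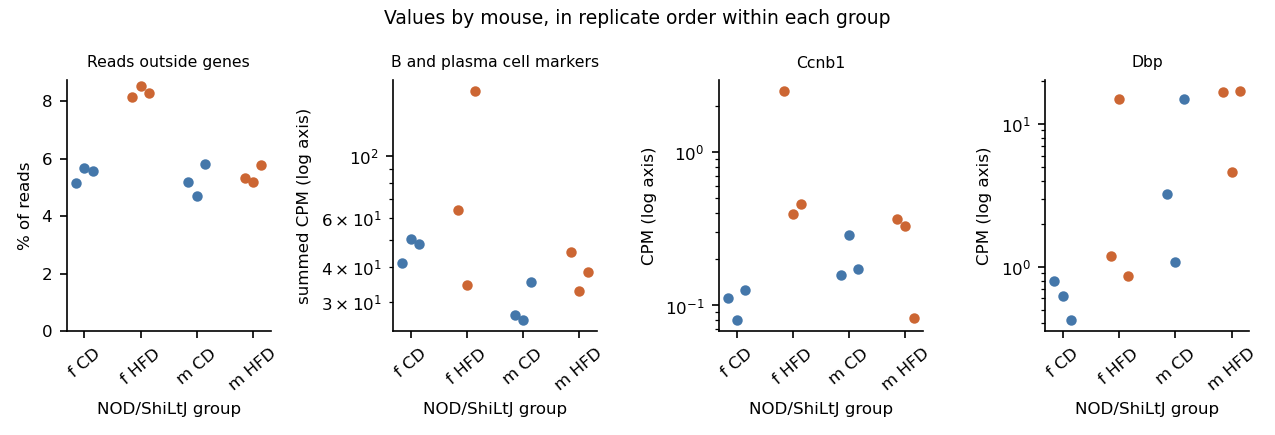
Share of reads outside genes, summed CPM of B and plasma cell markers (log axis), and CPM of Ccnb1 and Dbp (log axes) in each NOD/ShiLtJ mouse, females (f) and males (m) on chow (CD, blue) and high-fat diet (HFD, orange). The share of reads outside genes separates the female diets, whereas in the other 3 panels single high-fat females stand apart from the other females.

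Inflammatory and immune genes showed 0 calls in the lists for acute phase (31 genes), interferon (38) and antigen presentation (13), beside 0.886% of all genes called, at medians of 0.09, 0.10 and -0.02. Without overlap, 6 acute phase genes were higher and 2 lower, 5 interferon genes were higher and 1 lower, and 0 antigen presentation genes were either, beside 12.8% and 10.2% of all genes. The serum amyloid genes Saa1 and Saa2 were among the 6. Saa1 had 45.7, 15.1 and 49.5 CPM in chow mice and 394, 492 and 121 CPM in high-fat mice (3.19 ± 1.31 (SE), adjusted p = 0.276, or 0.00977 with the NOD/ShiLtJ libraries only, a fit that called 395 genes against 127). Saa2 had 8.35, 10.1 and 19.04 CPM and 201, 199 and 25.5 CPM (adjusted p = 0.271). High-fat mouse 3 was the lowest of its group in both. Reads that match both of these near-identical genes equally would be left out as not unique, so their levels are uncertain. Adgre1, the macrophage marker F4/80, had 17.1, 18.8 and 20.6 CPM and 26.6, 22.4 and 19.1 CPM (adjusted p = 0.779). Over 16 macrophage markers 0 were called (beside 0.886% of all genes), and 4 were higher and 0 lower without overlap, beside 12.8% and 10.2% of all genes. Their summed levels were 682 to 810.0 CPM in chow mice and 719 to 804 CPM in high-fat mice. In females of the other 8 strains the median change was 0.59 for the macrophage markers, 0.67 for the interferon list and 0.52 for antigen presentation, and a difference between strains was called for none of their members.

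B and plasma cell markers had a median log2 change of 1.08, with 5 of 15 (Pou2af1, Ms4a1, Ighg2b, Cd79a and Ighg1) higher without overlap and 0 lower, beside 12.8% and 10.2% of all genes. Their summed level, and that of fat tissue markers, was highest in high-fat mouse 3. Pou2af1, a cofactor of B cells, was called (0.259, 0.221 and 0.296 CPM and 0.413, 0.604 and 1.61 CPM, 1.74 ± 0.45 (SE), adjusted p = 0.0389). It was the only 1 of 15 B and plasma cell markers that passed, beside 0.398% of all genes called higher. The markers summed to 41.3, 50.2 and 48.2 CPM in the chow mice and to 63.9, 34.4 and 170.2 CPM in the high-fat mice. Cfd, the adipokine adipsin, was called with overlapping groups (0.241, 0.261 and 0.317 CPM and 0.113, 0.340 and 10.8 CPM, 3.77 ± 0.85 (SE), adjusted p = 0.0103). It and Fabp4 were the 2 of 7 fat tissue markers measured, and 1 of them, Cfd, was called, beside 0.398% of all genes called higher. Together they reached 4.11, 5.003 and 3.91 CPM in chow mice and 4.203, 5.89 and 24.7 CPM in high-fat mice. Without high-fat mouse 3 the change of Pou2af1 was 0.97 (adjusted p = 0.4003) and that of Cfd -0.26 (adjusted p = 0.947), so that neither call held and the direction of Cfd turned. The part of other tissue in that sample was not tested. No marker of cholangiocytes, stellate cells, endothelium, T and NK cells or neutrophils was called, beside 0.886% of all genes. Of 9 markers of liver endothelium, Stab1, Oit3 and Lyve1 were lower and Stab2 higher without overlap, beside 10.2% and 12.8% of all genes. The cholangiocyte marker Tspan8 was higher and the lymphocyte marker Gzmb lower without overlap, 1 each of the 6 and 9 measured, and 0 stellate cell and 0 neutrophil markers separated the diets.

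Collagen and matrix genes (17 measured) had 0 calls, beside 0.886% of all genes, and a median of 0.18, and 5 were higher and 0 lower without overlap, beside 12.8% and 10.2% of all genes. Col1a1, the main fibrillar collagen, had 3.29, 2.59 and 5.63 CPM in chow mice and 3.88, 3.796 and 5.28 CPM in high-fat mice, which overlap (adjusted p = 0.930), and Col3a1 had 13.6, 13.4 and 16.1 CPM and 19.8, 22.3 and 22.9 CPM, without overlap (adjusted p = 0.628). Of 21 genes of the endoplasmic reticulum stress response 0 were called (beside 0.886% of all genes), 8 were higher without overlap (12.8% of all genes) and the median was 0.37. The chaperone gene Sdf2l1 had 9.53, 6.11 and 11.8 CPM and 17.1, 40.3 and 24.97 CPM (adjusted p = 0.432), and Pdia6, a disulfide isomerase, had 123, 123 and 172 CPM and 211, 299 and 215 CPM (adjusted p = 0.360). Heat shock genes (11) and subunits of oxidative phosphorylation (32) had 0 calls as well, beside 0.886% of all genes, with medians of -0.25 and -0.03, and 2 of the latter were lower without overlap (10.2% of all genes).

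**Figure D4:**
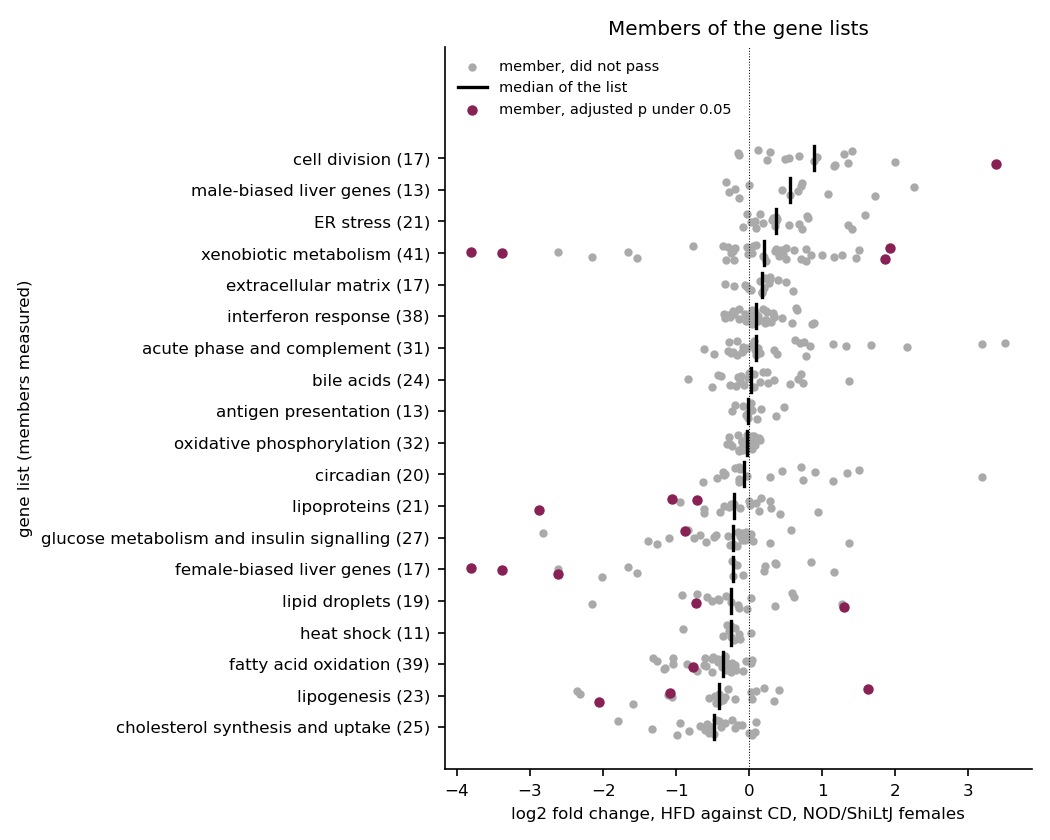
Log2 fold change of high-fat diet against chow in NOD/ShiLtJ females for the members of 19 gene lists, with 1 point per gene, a bar at each list's median and dark points for genes that passed. Medians run from -0.49 (cholesterol synthesis and uptake) to 0.88 (cell division), and most points near the medians did not pass.

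Compared with the males of the strain, which had 192 genes called (1.34%, with 0.719% higher and 0.621% lower), 28 genes were called in both sexes, all in the same direction. They made up 22% of the female and 14.6% of the male calls. The shared genes included Acacb (log2 change -1.48 in males, adjusted p = 0.0106), Me1 (-1.23, 0.00229), Srebf1 (1.33, 0.0468), Cyp17a1 (-1.60, 0.0384) and Scyl2 (-0.73, 0.0253). Ly6c1 also rose in the males (2.46, adjusted p = 1.61e-05), as did Mas1. Cyp39a1 and Cdhr2 fell in both sexes, with -2.85 and -2.74 in the males. Apoa4 had a log2 change of -0.62 in the males (adjusted p = 0.634), against -2.87 in the females, and the difference between the sexes did not pass (-2.26 ± 0.64 (SE), adjusted p = 0.535). Fasn, Elovl6 and Cidec did not pass in either sex, whereas Scd1 fell in the males (-4.62, adjusted p = 0.00141).

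A single gene passed the test of the difference between sexes (0.00698% of genes, with 642 at an unadjusted p under 0.05). Akr1e1 (chr13:4590750-4609174), an aldo-keto reductase that acts on anhydrofructose, rose in the females from 0.666, 2.89 and 1.396 CPM to 7.71, 4.31 and 3.22 CPM (1.63 ± 0.33 (SE), adjusted p = 0.00348). In the males it went from 3.08, 4.28 and 1.65 CPM to 1.67, 1.42 and 1.44 CPM (-0.99, adjusted p = 0.149). The difference of the diet effects was 2.62 ± 0.48 (SE; adjusted p = 0.00841), and it was lost in 5 of 12 fits without 1 mouse: those without female chow mouse 1 (0.112), female chow mouse 3 (0.0543), female high-fat mouse 1 (0.192), male chow mouse 2 (0.0802) or male high-fat mouse 2 (0.0612). It was also lost with the NOD/ShiLtJ libraries only (difference 2.61, adjusted p = 0.259). The female change itself was 1.19 without high-fat mouse 1 (adjusted p = 0.142). Reads that did not align uniquely made up 14.98% to 16.17% in the female and 19.3% to 24.12% in the male libraries, so that sex and this measure cannot be told apart.

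Against the mean of the females of the other 8 strains, where 4788 genes (33.4%) were called with the 48 libraries so labelled, 3 genes differed in the NOD/ShiLtJ females (0.0209%, of which 0.014% higher and 0.00698% lower, with 1016 at an unadjusted p under 0.05). Scyl2 fell by 0.22 on the log2 scale in the other strains, and the change in NOD/ShiLtJ females differed from this by -1.05 ± 0.20 (SE; adjusted p = 0.0208). Tmprss4 had a log2 change of -0.02 in the other strains, a difference of 2.11 ± 0.43 (SE; adjusted p = 0.0279), and it overlaps BC049352 and Gm17099 on the opposite strand. Fancl, a ubiquitin ligase of DNA repair, rose in NOD/ShiLtJ females from 5.57, 6.57 and 6.13 CPM to 10.3, 10.3 and 10.2 CPM and had 0.07 elsewhere, a difference of 0.68 ± 0.14 (SE; adjusted p = 0.0279). Fancl overlaps Vrk2 on the opposite strand, which rose as well (0.82 ± 0.19 (SE), adjusted p = 0.0168) and lost its call in 4 of 6 fits without 1 mouse (adjusted p up to 0.128, without chow mouse 3). Without the library labelled 129S1/SvImJ f CD 1, whose sex genes go against its label, 6 genes differed, Scyl2, Tmprss4 and Fancl among them. Without 1 NOD/ShiLtJ female 0 to 5 genes differed, with 0 without chow mouse 1, high-fat mouse 1 or high-fat mouse 2. For Apoa4 the difference from the other strains was -2.17 ± 0.49 (SE; adjusted p = 0.0536), and for Acacb -1.35 ± 0.36 (SE; adjusted p = 0.170), neither of which passed. In the same females of other strains 34 of the 57 genes that rose here and 59 of the 70 that fell were called in the same direction, beside 17% and 16.4% of all genes called higher and lower.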

How the data were processed

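RNA of mouse livers was sequenced from SMARTER mRNA-seq libraries, per the labels' protocols. The authors deposited 1 table of whole read counts per gene for 106 libraries. The submitters' processing notes name FastQC, STAR 2.73a and edgeR 3.24.3, while the build, annotation, strand setting and gene filter are not given in the sources used here. The deposited counts behaved as raw, with summary lines (reads outside genes, ambiguous and not unique) left out of library sizes and tests. Their shares are given where they bear on a result. Depth was 48129496 to 52901470 gene counts in the NOD/ShiLtJ females. No 2 libraries were identical. All 14330 genes were tested with no further filter, and symbols came from GENCODE M21 (GRCm38) for 14321 of them.

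Diet contrasts were fitted with edgeR 4.0.16 (R 4.3.3) quasi-likelihood F tests, TMM factors of 0.839 to 1.13 and 1 mean for each of 36 strain, sex and diet groups, which left 70 residual degrees of freedom. The p-values were Benjamini-Hochberg adjusted over all genes with a threshold of 0.05. Standard errors are the log2 change divided by the root of F. The labels give each library to 1 mouse. Alternatives were DESeq2 1.42.0, limma 3.58.1, DESeq2-style size factors, a minimum of 1 CPM, fewer libraries, each mouse left out, and the covariate above. On simulated counts with 100 genes changed 2-fold and 100 changed 4-fold, 74 and 98 were recovered, and 3.37% of the calls were false. The simulated counts used the spread estimated over the series and changed only genes of at least 1 CPM. They held no outlying mouse, cohort or difference in reads outside genes, so these rates need not hold for the real libraries.

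Genes were named by a rule: a fixed panel of 29 genes, the 12 largest rises and 12 largest falls among called genes of at least 1 CPM whose groups did not overlap and whose symbol is not a clone or predicted name (Gm with digits, or ending in Rik), up to 4 called members of each list, and up to 4 genes in each direction for the differences between sexes and strains. Other genes of the lists, Gm47528, Vrk2, Pou2af1 and Cfd were chosen for mention after their values were seen. The members and the gene lists were chosen with earlier results of these data known. Some genes of the panel and the lists are not reported here by name, and the counts over lists include them.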

Additional observations from a re-analysis of the deposited data

Results flagged for a closer look

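Akr1e1 differed between NOD/ShiLtJ females and males, with a diet effect 2.62 higher in females on the log2 scale by the test of the difference. The call was lost with the NOD/ShiLtJ libraries only (adjusted p = 0.259 in edgeR) and in 5 of 12 fits without 1 mouse. In the females all 3 high-fat mice exceeded the chow mice.

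Scyl2, Tmprss4 and Fancl differed between NOD/ShiLtJ females and the mean of the females of the other 8 strains by -1.05, 2.11 and 0.68 on the log2 scale. With the share of reads outside genes as a covariate the difference of Scyl2 still passed (adjusted p = 0.0392 in edgeR), whereas those of Tmprss4 (0.577) and Fancl (0.123) did not.

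Reads outside genes are not part of the gene measurements. They made up at least 8.13% of reads in the high-fat NOD/ShiLtJ females, above the highest share in the chow females, so that this share and the diet cannot be told apart. The covariate fit cannot separate them, and the part of these reads in the diet effects was not tested.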

How the results depend on the processing

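No paired analysis was possible because the labels carry animal numbers and no replicate numbers shared between groups. The count of female calls was 122 with DESeq2-style size factors, 95 with limma and 90 with a minimum of 1 CPM, within 1.5 times the 127. It was 207 with DESeq2, 395 with NOD/ShiLtJ libraries only, 298 with the 6 female libraries only and 38 with the covariate. Of the 127 genes, 122 were called again with those size factors, 89 with limma, 89 with the minimum of 1 CPM (107 tested), 127 with DESeq2, 96 with NOD/ShiLtJ libraries only, 73 with the 6 female libraries and 32 with the covariate. With NOD/ShiLtJ libraries only 487 genes were called in the males. The sex difference gave 4 genes with DESeq2, 3 with NOD/ShiLtJ libraries only (Akr1e1 not among them) and 2 with the covariate. The difference from the other strains gave 21 genes with DESeq2, 7 with females only, 6 when the 129S1/SvImJ chow library whose sex genes go against its female label was left out, and 14 without 129S1/SvImJ. The cause was not tested. With 1 mouse left out the counts ran from 33 to 147 for the females, 44 to 158 for the males, 0 to 2 for the sex difference and 0 to 5 for the strain difference. Fgf21 ran from -0.78 to 0.052 on the log2 scale, Col1a1 from -0.036 to 0.55 and Cyp7a1 from -1.05 to 1.01, and Cyp7a1 was -0.58 with the covariate. These 3 did not pass at any sign. With 3 mice a group, about 2-fold changes are at times missed, as the simulated counts show.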

Other observations

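Several called genes outside the naming rule were chosen here after their values were seen. Sfxn1, a mitochondrial serine carrier, fell from 89.4, 88.1 and 75.7 CPM in the chow females to 55.97, 46.9 and 40.6 CPM in the high-fat females (-0.82 ± 0.13 (SE), adjusted p = 0.000143 by edgeR), and it fell in the males as well (-0.67, adjusted p = 0.00119). St6galnac2, a sialyltransferase, rose from 4.498, 3.94 and 3.004 CPM to 7.84, 12.4 and 12.5 CPM (1.51 ± 0.25 (SE), adjusted p = 0.000188). Agxt2, a mitochondrial aminotransferase, rose from 81.7, 78.2 and 85.6 CPM to 132, 166 and 149 CPM (0.86 ± 0.15 (SE), adjusted p = 0.000233). In each of these genes the groups do not overlap, and Agxt2 rose in the males by nearly the same amount (0.80).

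Enpp2, the enzyme autotaxin that makes lysophosphatidic acid, rose from 26.3, 28.9 and 32.6 CPM to 78.7, 83.9 and 52.3 CPM (1.29 ± 0.23 (SE), adjusted p = 0.000414). Its opposite-strand neighbour Gm26684 rose too (1.74 ± 0.39 (SE), adjusted p = 0.0103). The genes overlap only at chr15:54952070-54952892, and reads from that stretch cannot be assigned if strand was not used. Abhd6, a monoacylglycerol lipase, fell from 93.5, 111 and 88.1 CPM to 46.1, 32.4 and 59.3 CPM (-1.09 ± 0.20 (SE), adjusted p = 0.000385). Ces1g, a lipase and carboxylesterase of the liver with close relatives, rose from 41.8, 61.2 and 32.6 CPM to 143, 127 and 193 CPM (1.77 ± 0.37 (SE), adjusted p = 0.00516). None of these groups overlap. Ildr2, a membrane protein of the endoplasmic reticulum, rose from 5.18, 7.45 and 9.01 CPM to 22.8, 34.96 and 22.4 CPM (1.89 ± 0.32 (SE), adjusted p = 0.000233).

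Eno1, the glycolytic enolase, fell from 381, 390.4 and 418 CPM to 226, 177 and 288 CPM (-0.78 ± 0.15 (SE), adjusted p = 0.00131), and its near-identical copy Eno1b had -0.77 (adjusted p = 0.00741). Reads that match Eno1 and Eno1b equally would be left out as not unique, so both levels are uncertain. Transporters moved in both directions: Slc22a5, the carnitine carrier, fell by 0.97 on the log2 scale (adjusted p = 0.0401), and Slc22a7, an organic anion carrier, rose by 1.55 (adjusted p = 0.0402). Slc22a7 had 11.8, 18.2 and 13.6 CPM on chow and 52.3, 31.4 and 44.1 CPM on the high-fat diet, without overlap. Cycs, the cytochrome c of the respiratory chain, fell from 81.9, 85.3 and 93.6 CPM to 58.1, 44.4 and 63.7 CPM (-0.65 ± 0.14 (SE), adjusted p = 0.00769). Sfxn1, St6galnac2, Agxt2, Enpp2, Abhd6 and Ildr2 passed without any 1 of the 6 mice. Eno1 lost its call without high-fat mouse 2 (adjusted p = 0.0951), Ces1g in 2 of 6 such fits (up to 0.0747 without chow mouse 3) and Cycs in 2 (up to 0.179 without high-fat mouse 2). Eno1b and Gm26684 each lost theirs in 3 fits and Slc22a5 in 5, with adjusted p up to 0.173, 0.128 and 0.343 without high-fat mouse 2, and Slc22a7 in 6, with 0.216 without chow mouse 1.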
